A study of Mus musculus with 16 samples.

Results

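The transcription factors that set the gene programme of the hepatocyte were followed in mouse primary hepatocytes and primary pancreatic islets. They are the 9 genes Hnf4a, Foxa1, Foxa2, Foxa3, Cebpa, Onecut1, Nr5a2, Prox1 and Nr1h4, chosen by symbol, and 8 of them had a row among the 18111 gene symbols of the arrays. Onecut1 has no values here. The arrays were Illumina bead arrays of biotin-labelled cRNA made from total RNA, and the stated purpose was to see what loss of NAD does to gene expression. Both cell preparations came from wild type B6 mice and were treated in culture for 48 h, and no age or sex is given. FK866 inhibits NAMPT, an enzyme of NAD salvage that uses nicotinamide. Hepatocytes received 200 nM FK866 and islets 10 nM FK866, while the control group of each tissue received 0.1% DMSO, so the doses differed between the tissues. Each of the 4 groups had 4 arrays, numbered 1 to 4. Whether replicates were separate animals or cultures is not stated in the labels. The p-values below therefore refer to the spread among these arrays alone, and that spread may be technical.

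As background, no single factor makes a hepatocyte. The forkhead proteins Foxa1, Foxa2 and Foxa3 open chromatin at liver genes, and the nuclear receptor Hnf4a then drives the genes of plasma proteins, apolipoproteins and metabolism together with the basic leucine zipper protein Cebpa. The nuclear receptor Nr5a2 (LRH-1) and the bile acid receptor Nr1h4 (FXR) control bile acid and cholesterol genes, and the homeobox protein Prox1 acts in liver development and as a partner of nuclear receptors. Several of these genes are not confined to the liver. Foxa2 and Hnf4a are needed for insulin secretion by beta cells, Nr5a2 is a factor of pancreatic acinar cells, and Prox1 is also made in pancreatic islets, ducts and lymphatic vessels.

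Hnf4a has an upstream promoter used in pancreatic islets and a downstream promoter used in adult liver, and both are shown because the gene was detected in both tissues here. Their start sites lie 40298 bases apart on the plus strand of chromosome 2. The promoter of Foxa1 is shown as that of a factor detected in hepatocytes only. All are RefSeq promoter windows of 300 bases on GRCm38.p6, running from 250 bases before the start site to 50 after it. Matches to the letters of 5 factor families are in capitals.
Hnf4a upstream, chr2:163506607-163506906, plus strand: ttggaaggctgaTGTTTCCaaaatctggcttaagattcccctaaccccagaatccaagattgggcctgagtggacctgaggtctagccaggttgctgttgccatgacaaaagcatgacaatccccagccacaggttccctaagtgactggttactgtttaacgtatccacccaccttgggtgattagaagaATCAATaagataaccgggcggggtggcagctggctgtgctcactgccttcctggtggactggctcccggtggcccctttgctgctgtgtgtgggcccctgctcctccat
Hnf4a downstream, chr2:163546905-163547204, plus strand: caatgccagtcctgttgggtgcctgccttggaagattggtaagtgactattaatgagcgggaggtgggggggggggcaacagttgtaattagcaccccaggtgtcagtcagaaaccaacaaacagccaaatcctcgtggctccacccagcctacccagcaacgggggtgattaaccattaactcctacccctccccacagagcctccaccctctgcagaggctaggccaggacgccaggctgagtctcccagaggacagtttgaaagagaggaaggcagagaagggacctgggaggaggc
Foxa1, chr12:57546062-57546361, minus strand: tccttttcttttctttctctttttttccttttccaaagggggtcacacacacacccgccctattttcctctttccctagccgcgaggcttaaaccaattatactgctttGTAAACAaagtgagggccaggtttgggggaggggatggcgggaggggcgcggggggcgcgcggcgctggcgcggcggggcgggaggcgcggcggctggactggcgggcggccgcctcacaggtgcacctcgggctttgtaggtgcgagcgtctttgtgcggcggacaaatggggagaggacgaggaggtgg
The upstream window of Hnf4a held the forkhead letters TGTTTNC at -238 and the HNF6 letters ATCAAT at -59 from the start site. The downstream window held none of the 5 sets of letters. The Foxa1 window held a forkhead match, read on the other strand as GTAAACA, at -141. Over the 14 windows of the 9 genes, the forkhead letters were in 3, against 20.5% of 32851 promoters. The HNF6 letters were in 2 against 7.54% and the CEBP letters TTGCNNAA in 1 against 10.8%. The HNF4 letters CAAAGTCCA and the LRH-1 letters CAAGGNCA were in 0 windows, against 0.475% and 6.71% of all promoters. Both strands were searched. A match is a match of letters only. Where the array probes lie on the transcripts was not analysed here, so the start site a transcript came from is not known.

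Values are normalized log2 signals of the brightest probe of each gene unless stated, and a probe counted as detected on an array at a detection p under 0.05. The arrays each detected 11018 to 11846 of the 25697 probes. The number of arrays limits the precision. The hepatocyte markers Apoa1, Ahsg, Serpina1a, Cyp2e1 and Cps1 were detected on every hepatocyte array and on 0 islet arrays, while Alb, Tat, Fgb and Hpd were detected on 0 of 16 arrays. Marker sums here and below are of normalized signals on the linear scale, with the normalization offset of 16 left in. These 9 hepatocyte markers summed to between 18300 and 28500 on hepatocyte arrays. On islet arrays, where 0 of them were detected, the sums of 258 to 283 are background. In control cells islets had the higher level for 9 of 10 beta cell markers, against 31.9% of all tested genes called higher in islets. Of the 10, 6 were detected on 0 hepatocyte control arrays and so could only be higher in islets. Ins1, Iapp and Slc2a2 were detected on every hepatocyte array too. Their control means were 6.53, 7.79 and 7.86 log2 in hepatocytes, against 15.75, 13.37 and 10.17 in islets. Duct and cholangiocyte markers summed to between 22900 and 30500 on hepatocyte arrays and between 7110 and 10100 on islet arrays. Each sum is mainly 1 gene, Spp1 in hepatocytes (control mean 14.66 log2) and Krt7 in islets (12.81), so the sums do not compare the same genes. Of these markers, Spp1 differed by -4.57 log2 between islets and hepatocytes (SE 0.25), and Krt19 and Sox9 were detected on 0 of 4 islet control arrays. Krt7 differed the other way, by 7.06 (SE 0.19), and Muc1 by 0.2 (SE 0.19), which did not pass. Both islet arrays numbered 2 stood apart, with median signals of 15.4 (control) and 18 (FK866), while the remaining islet arrays had 26.9 to 33.1. Their fibroblast and stellate markers summed to 3230 and 1810, and to 903 to 1450 on the remaining islet arrays. In control cells, the tissue differences of Hnf4a, Foxa2 and Foxa3 are given with and without the islet array numbered 2.

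**Figure D1:**
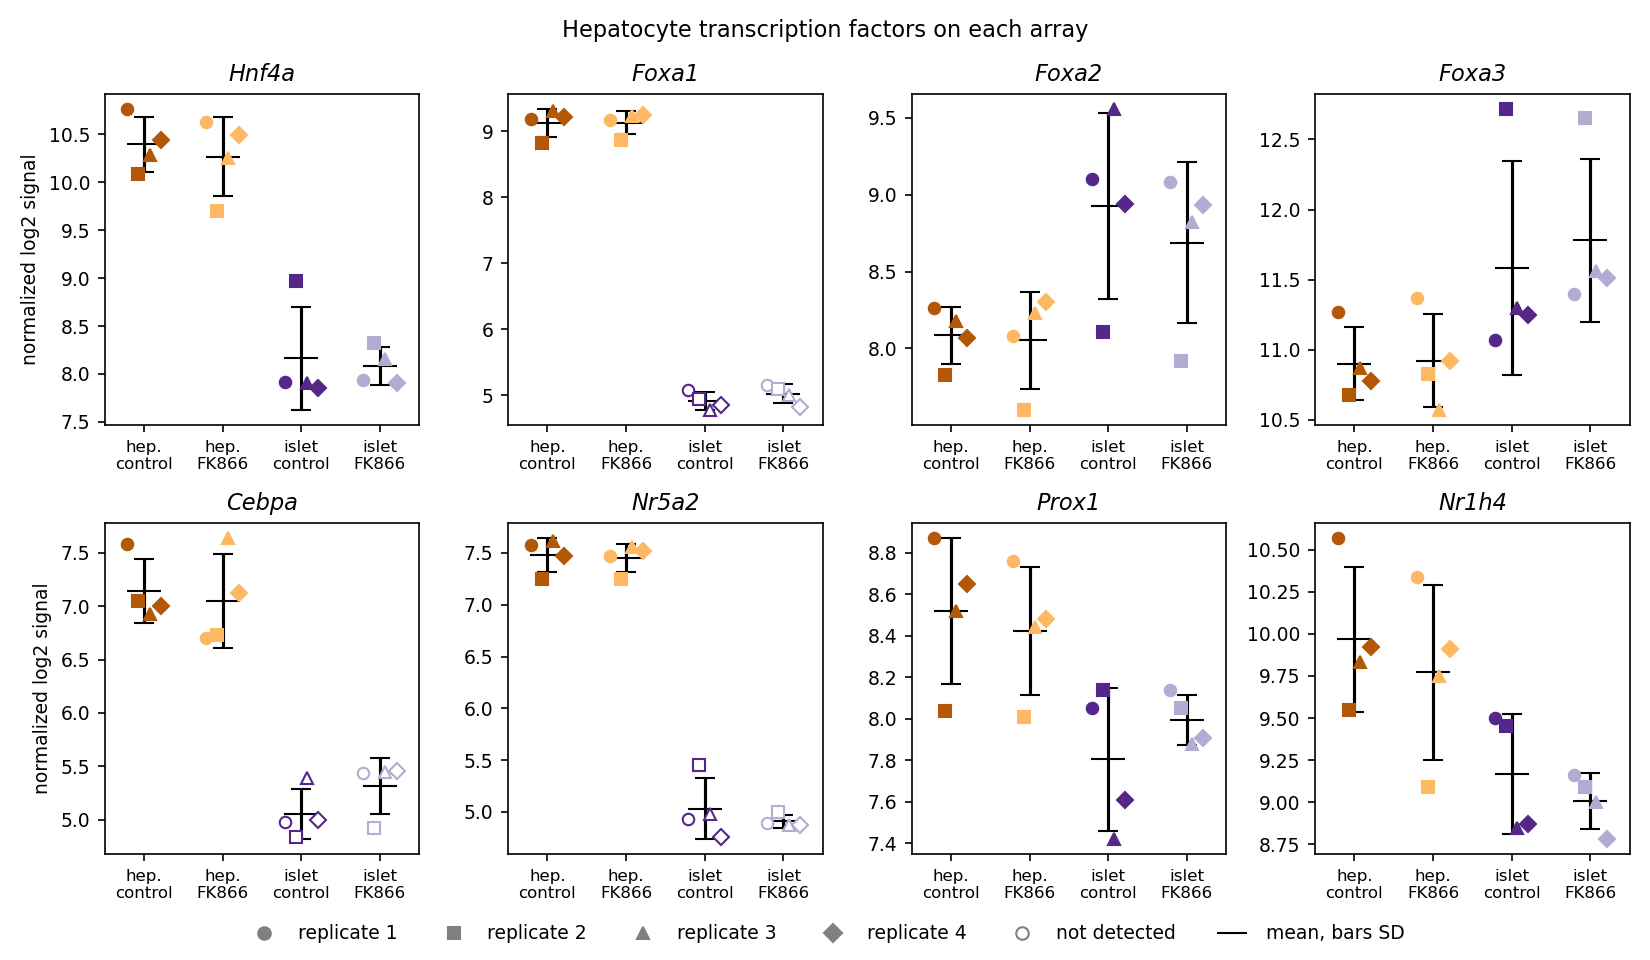
Normalized log2 signal of each factor (vertical axes, each on its own scale) on the 16 arrays, by group. Symbols stand for replicate numbers, open symbols for arrays where the probe was not detected, and lines for the mean with bars of 1 SD. The plotted probes of Foxa1, Cebpa and Nr5a2, the last the brightest of 3, were detected on all 8 hepatocyte arrays and on 0 of 8 islet arrays, and islet arrays 2 stood high for Foxa3.

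In control cells, 6 of the 8 factors were higher in hepatocytes and 1 was higher in islets. Hnf4a, Foxa1, Cebpa, Nr5a2, Prox1 and Nr1h4 were the 6, and Foxa2 was the factor higher in islets. The test was limma with Benjamini-Hochberg adjustment over 9363 genes at 0.05, which called 28.3% of all tested genes higher in hepatocytes, 31.9% higher in islets and 60.2% in either direction. Arrays of the tissues did not overlap for 5 of the 8, against 61% of all tested genes. The probes used for Foxa1, Cebpa and Nr5a2 were detected on hepatocyte arrays only and thus entered the test only through these arrays, so their direction was set by the detection filter. Differences below are islet minus hepatocyte unless a fold is given. In bulk samples, fewer cells of a type and less RNA per cell cannot be told apart.

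Hnf4a, the nuclear receptor at the centre of the hepatocyte network, was detected on all 16 arrays. Its log2 signal on hepatocyte control arrays 1 to 4 was 10.77, 10.09, 10.29 and 10.44, and on islet control arrays 7.92, 8.97, 7.91 and 7.85. Every hepatocyte array lay above every islet array, and islet array 2 lay above and apart from the other islet arrays. Before normalization array 2 was instead the lowest, with linear signals of 236.9, 213.6, 330.4 and 239 on islet control arrays 1 to 4. The level was 4.7-fold higher in hepatocytes, a difference of -2.23 log2 (SE 0.28, 95% interval -2.87 to -1.6, limma adjusted p = 0.000103, n = 4 arrays per group). Without islet control array 2 the difference was -2.5 (SE 0.16, limma adjusted p = 3.71e-07). With FK866, hepatocyte arrays read 10.63, 9.7, 10.25 and 10.49 and islet arrays 7.94, 8.32, 8.16 and 7.91, again without overlap.

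The 3 forkhead genes gave different calls. Foxa1 read 9.18, 8.82, 9.3 and 9.22 on hepatocyte control arrays 1 to 4 and 5.08, 4.95, 4.78 and 4.85 on islet control arrays, where it was not detected on any. For such a probe the fold is a bound, the hepatocyte mean against the mean, per islet array, of the higher of its own value and the lowest detected value. Foxa1 was at least 9.64-fold higher in hepatocytes, with measured means of 9.13 (SD 0.22) and 4.92 (SD 0.13) and limma adjusted p = 4.13e-08.

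Foxa2, the forkhead gene that is also a factor of endoderm and beta cells, read 8.26, 7.83, 8.18 and 8.07 on hepatocyte control arrays and 9.1, 8.11, 9.56 and 8.94 on islet control arrays. Islet array 2 fell among the hepatocyte arrays, and the other 3 islet arrays lay above all of them. The difference was 0.84 log2 (SE 0.29, 95% interval 0.19 to 1.49, limma adjusted p = 0.0309). Without islet control array 2 it was 1.11 (adjusted p = 0.000209), and without any 1 of the other 7 arrays it was 0.63 to 0.9 and missed the threshold (adjusted p from 0.0502 to 0.0843). The call was also lost on the deposited scores (adjusted p = 0.331), on floored signals (0.0555), without the detection filter (0.0527) and with the mean of the gene's probes (0.0508), one of which was detected on 0 of 16 arrays.

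Foxa3, the third forkhead gene of adult liver, was not called. It read 11.27, 10.68, 10.87 and 10.78 on hepatocyte control arrays and 11.07, 12.72, 11.3 and 11.25 on islet control arrays. Hepatocyte array 1 lay above islet arrays 1 and 4, so the groups overlapped. Islet array 2 stood far above the rest in these normalized values only. Before normalization the linear Foxa3 signals of islet control arrays 1 to 4 were 2098, 3329, 3466 and 2529. The difference of 0.69 log2 (SE 0.35, 95% interval -0.11 to 1.49) did not pass (limma adjusted p = 0.122), and without islet array 2 it was 0.31 (adjusted p = 0.0967).

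Cebpa, which drives metabolic genes and restrains division of hepatocytes, read 7.58, 7.05, 6.93 and 7 on hepatocyte control arrays and 4.98, 4.84, 5.39 and 5 on islet control arrays, where it was not detected. It was at least 2.42-fold higher in hepatocytes, with means of 7.14 (SD 0.3) and 5.05 (SD 0.24) and limma adjusted p = 1.83e-05. Nr5a2 read 7.58, 7.25, 7.62 and 7.47 against 4.93, 5.45, 4.98 and 4.76, also undetected in islets. It was at least 3.07-fold higher in hepatocytes (means 7.48, SD 0.17, and 5.03, SD 0.3, limma adjusted p = 3.82e-06). That holds for the brightest of its 3 probes only. A second Nr5a2 probe was detected on 2 of 4 hepatocyte and 3 of 4 islet control arrays and differed by 0.11 log2 (SE 0.28, adjusted p = 0.747), and the third was detected on 0 of 16 arrays. With the mean of the 3 probes the difference of Nr5a2 was -0.98 instead of -2.45 (adjusted p = 0.000594). The probes of Nr5a2 thus disagree, and which transcripts each one reads was not analysed here. Acinar markers, whose cells are known to make Nr5a2, were detected on 0 hepatocyte arrays. On islet control array 3 they numbered 6 of 8 and summed to 1050. The remaining islet arrays, with 0 or 1 detected, had sums of 249 to 400. The brightest Nr5a2 probe was not detected on islet control array 3.

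Prox1 and Nr1h4 were detected on all 16 arrays, and their fitted differences were smaller. Prox1 read 8.87, 8.04, 8.52 and 8.65 on hepatocyte control arrays and 8.05, 8.14, 7.42 and 7.61 on islet control arrays. Hepatocyte array 2 lay below islet arrays 1 and 2, so the groups overlapped. The difference was -0.71 log2 (SE 0.24, 95% interval -1.26 to -0.17, limma adjusted p = 0.0281). It missed the threshold without hepatocyte array 1, 3 or 4 or islet array 3 or 4, with differences of -0.71 to -0.58 and adjusted p from 0.0634 to 0.0831. The call was also lost on the deposited scores (adjusted p = 0.261) and with the mean of both Prox1 probes (-0.4, 0.0606), of which the second was detected on 0 of 16 arrays.

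Nr1h4, the bile acid receptor, read 10.57, 9.55, 9.83 and 9.92 on hepatocyte control arrays and 9.5, 9.45, 8.85 and 8.87 on islet control arrays. The lowest hepatocyte array lay just above the highest islet array. The difference was -0.8 log2, a 1.74-fold lower level in islets (SE 0.26, 95% interval -1.39 to -0.21, limma adjusted p = 0.0255). It missed the threshold without hepatocyte array 1 (-0.6, adjusted p = 0.0661) or 4 (-0.82, 0.0531) or islet array 3 (-0.7, 0.0683) or 4 (-0.7, 0.0668). Nr0b2, the repressor that Nr1h4 induces, and Cyp7a1, the rate-limiting enzyme of bile acid synthesis, were detected on 0 of 16 arrays. Ppargc1a, a coactivator of Hnf4a, was detected on 1 of 4 hepatocyte control arrays and on 0 of the other arrays.

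**Figure D2:**
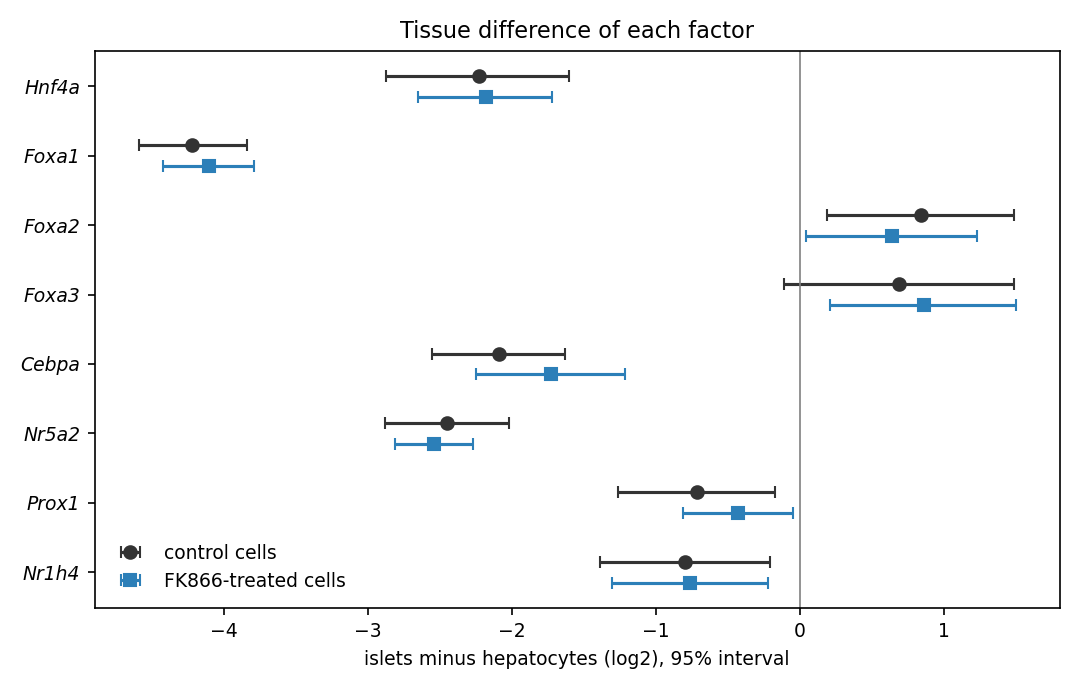
Islet minus hepatocyte difference in log2 signal for each factor, in control cells (circles) and in FK866-treated cells (squares), with 95% intervals. Values for Foxa1, Cebpa and Nr5a2 (its brightest probe) are fitted differences to undetected islet probes; the intervals of Foxa2 and Foxa3 lie mostly above 0 and those of the other 6 factors below it.

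The tissue difference was measured again in the FK866-treated cells, which are other arrays but received different doses. By their values these arrays pair with the control arrays of the same number, so this is not an independent repeat. Here 6 factors were higher in hepatocytes and 1, now Foxa3, was higher in islets, against 31.6% and 36.9% of 9371 tested genes and 68.5% called in either direction. Groups did not overlap for 5 of 8 factors, against 66.4% of all tested genes. Hnf4a differed by -2.18 log2 (SE 0.21, limma adjusted p = 7.58e-06). The probes used for Foxa1, Cebpa and Nr5a2 were again not detected in islets and were at least 9.78-fold, 2.32-fold and 3.06-fold higher in hepatocytes. The second Nr5a2 probe, detected on 3 of 4 hepatocyte and 2 of 4 islet arrays, differed by -0.13 (SE 0.19, adjusted p = 0.575), and the mean of the 3 probes by -1.08 instead of -2.54 (4.71e-05). Nr1h4 differed by -0.76 (SE 0.24, adjusted p = 0.0174). Prox1 differed by -0.43 (SE 0.17, adjusted p = 0.0446), and its call was lost without any 1 of the hepatocyte or islet arrays 1, 3 or 4 (-0.48 to -0.32, adjusted p from 0.0511 to 0.129). The Prox1 call was also lost on the deposited scores (0.38), without the detection filter (0.0545), with trended and robust variances (0.0516) and with the mean of both probes (0.0543).

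With FK866, Foxa3 read 11.37, 10.83, 10.57 and 10.92 on hepatocyte arrays and 11.4, 12.65, 11.56 and 11.51 on islet arrays. All islet arrays lay above all hepatocyte arrays, the closest pair by a narrow margin. The difference was 0.86 log2 (SE 0.29, 95% interval 0.21 to 1.5, limma adjusted p = 0.0228). It was 0.57 without islet array 2 (adjusted p = 0.0103), and the call was lost without hepatocyte array 2 (0.83, 0.057) or 3 (0.74, 0.0674). It was also lost with normalization within each tissue (0.7, 0.0511), on the deposited scores (0.0673) and on floored signals (0.0553). Foxa2 read 8.08, 7.6, 8.23 and 8.3 on hepatocyte arrays and 9.08, 7.92, 8.82 and 8.93 on islet arrays. Islet array 2 again fell among the hepatocyte arrays. Foxa2 differed by 0.64 (SE 0.26, adjusted p = 0.0549), and without islet array 2 by 0.89 (adjusted p = 0.000618).

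FK866 was then compared with control within each tissue. In hepatocytes limma called 0 of the 8 factors, as it called 0% of 8562 tested genes. At an unadjusted p under 0.05 it called 0 of the 8, against 1.72% of all tested genes, and the groups overlapped for all 8 factors, while they did not for 1.07% of all tested genes. The changes ran from -0.2 log2 for Nr1h4 (SE 0.28, 95% interval -0.82 to 0.43) to 0.02 for Foxa3 (SE 0.18, interval -0.38 to 0.43). Hnf4a changed by -0.13 (SE 0.21, interval -0.6 to 0.35), Cebpa by -0.09 (SE 0.22, interval -0.59 to 0.41) and Prox1 by -0.1 (SE 0.2, interval -0.54 to 0.35). The narrowest intervals were those of Nr5a2, -0.27 to 0.21, and Foxa1, -0.29 to 0.28. A change of the size of these intervals was not detectable by this fit, which did not use the pairing of arrays by replicate number.

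Replicate numbers were taken, from the values, to pair the arrays within a tissue, and the changes within pairs show where the spread lay. In pairs 1 to 4 of hepatocytes Nr1h4 changed by -0.23, -0.46, -0.08 and -0.01, and Prox1 by -0.11, -0.03, -0.08 and -0.17, lower in 4 of 4 pairs. With the pair as a block the SE was 0.09 for Nr1h4 (limma adjusted p = 0.814) and 0.06 for Prox1 (0.887), so neither passed. Cebpa showed no common direction, with -0.88, -0.31, 0.72 and 0.12, and Foxa1 stayed within 0.08 log2 of its control in each pair.

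The same hepatocyte arrays were high or low for most factors. Array 2 was the lowest of its group for 7 of 8 factors in the control and 6 of 8 with FK866, and array 1 was the highest for 6 and 4. Beside this, the hepatocyte markers summed to 28500 and 28400 on the arrays numbered 1, control and FK866, to 18300 and 19600 on the arrays numbered 2, and to 18400 to 21200 on the others. Endothelial markers summed to 3150 and 2920 on the arrays numbered 2 and to 3270 and 2950 on the arrays numbered 4, against 1390 to 2110 on the others. The part of cell makeup in the factors' levels was not tested.

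In islets the probes of 5 of the 8 factors were detected and tested, and limma called 0 of the 5, as it called 0% of 8918 tested genes. At an unadjusted p under 0.05 it called 0 of the 5, against 1.33% of all tested genes, and the groups overlapped for all 5, while they did not for 1.67% of all tested genes. Hnf4a changed by -0.08 log2 (SE 0.28, 95% interval -0.71 to 0.55), Foxa2 by -0.24 (SE 0.36, interval -1.06 to 0.58) and Foxa3 by 0.19 (SE 0.42, interval -0.77 to 1.16). Prox1 changed by 0.19 (SE 0.21, interval -0.28 to 0.66) and Nr1h4 by -0.16 (SE 0.22, interval -0.65 to 0.33). In pairs 1 to 4 Hnf4a changed by 0.02, -0.65, 0.25 and 0.06, so its sign came from pair 2, and without both arrays numbered 2 it was 0.11. Foxa2 changed by -0.02, -0.19, -0.74 and -0.02 and Foxa3 by 0.33, -0.07, 0.26 and 0.26. The probes used for Foxa1, Cebpa and Nr5a2 were detected on 0 of 4 FK866 arrays and 0 of 4 control arrays of islets. The second Nr5a2 probe, detected on 2 of 4 and 3 of 4, changed by -0.25 (SE 0.28, limma adjusted p = 1).

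**Figure D3:**
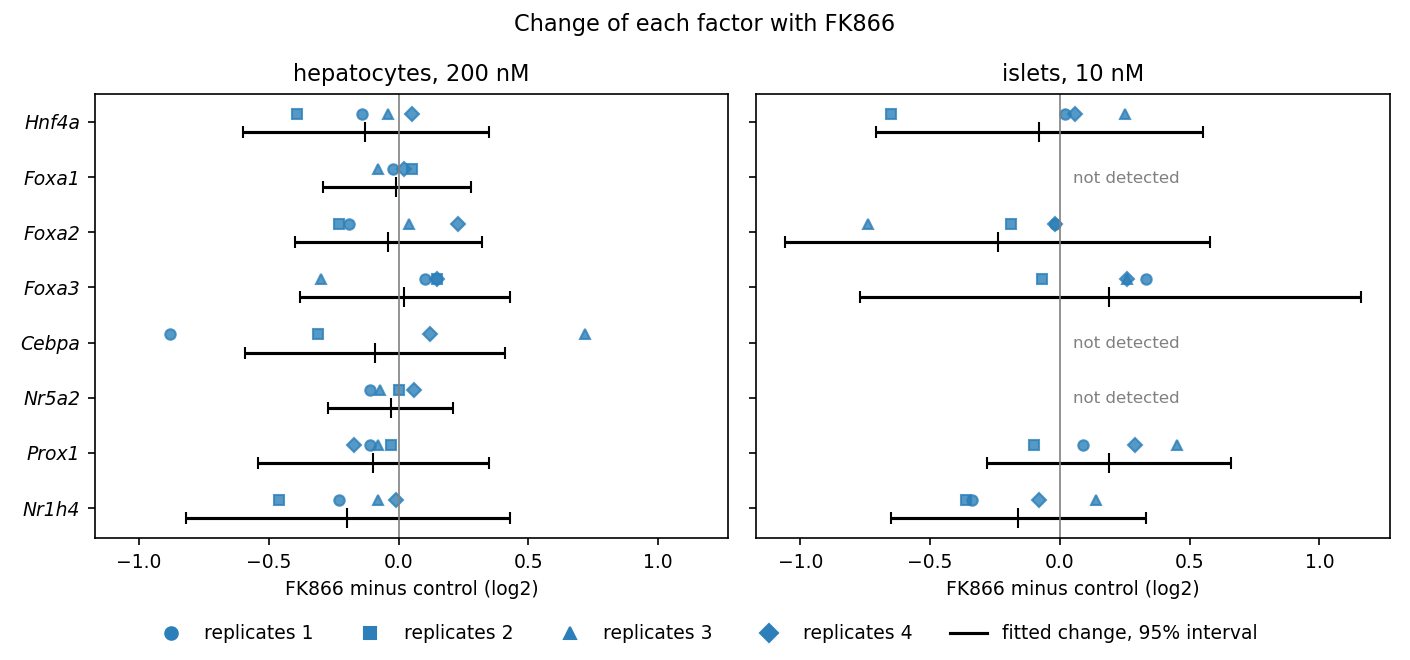
FK866 minus control in log2 signal for each factor, in hepatocytes at 200 nM (left) and islets at 10 nM (right). Symbols are the 4 pairs of arrays with the same replicate number, and lines are the fitted change with its 95% interval; every interval includes 0, and the probes used for 3 factors were not detected in islets.

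The change in islets was also set against the change in hepatocytes in a fit of all 16 arrays. limma called 0 of the 8 factors and 0% of 10067 tested genes, with 0 factors and 1.79% of all genes at an unadjusted p under 0.05. The probes used for Foxa1, Cebpa and Nr5a2 were undetected on every islet array, so for them this fit could not measure a difference of changes. The differences of the changes ran from -0.2 log2 for Foxa2 (SE 0.41, 95% interval -1.08 to 0.67) to 0.36 for Cebpa (SE 0.31, interval -0.31 to 1.02), whose islet values were below detection. The doses differed 200 nM to 10 nM between these tissues.

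**Figure D4:**
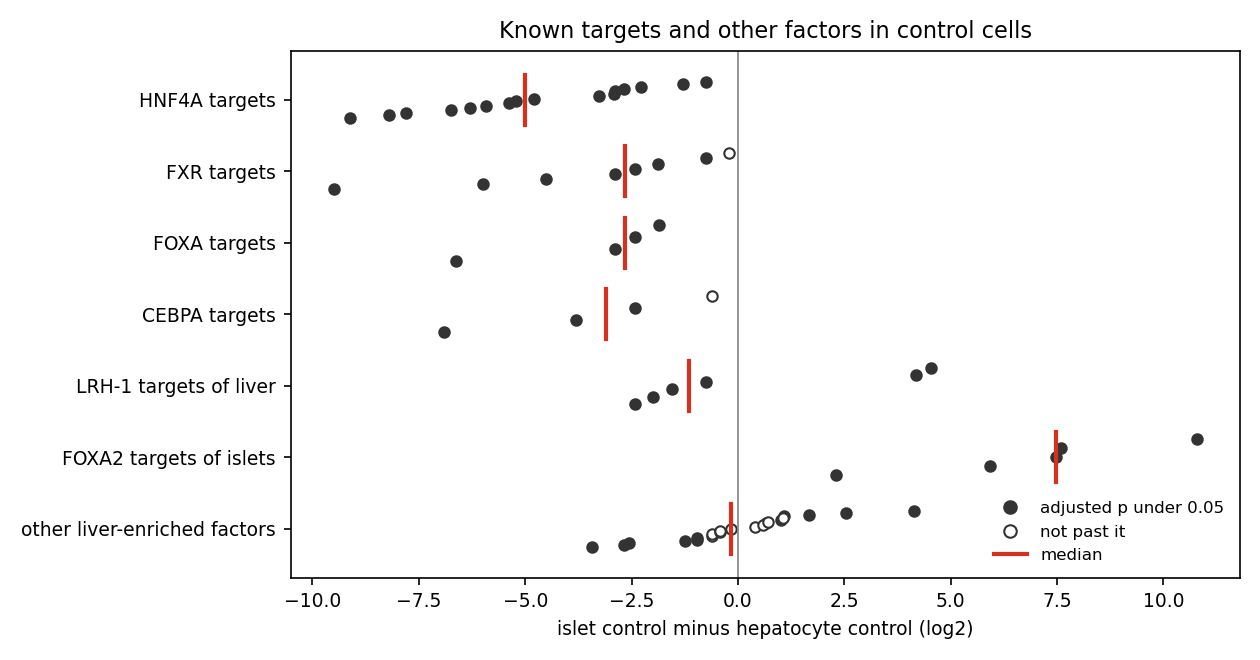
Islet control minus hepatocyte control difference in log2 signal (horizontal axis) for each tested gene of 7 lists; filled points passed adjusted p 0.05, open points did not, and red bars are list medians. Points include genes undetected in 1 tissue, at their fitted difference; HNF4A targets have a median of -5.01, FOXA2 targets of islets 7.47 and the other liver-enriched factors -0.17.

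Known target genes of the factors were taken from lists made for this work, with some genes on several lists. Of 24 HNF4A targets 16 were tested in control cells and 16 were higher in hepatocytes, with a median of -5.01 log2 against 0.06 over all tested genes and 28.3% of them called. Of these 16, 9 were detected on 0 islet arrays and so could only be lower there. Of the 16, 3 were detected on all 8 control arrays. The other 7 included Trf, the plasma iron carrier, at -9.11 (SE 0.27), detected on 3 of 4 islet control arrays. Apoa1, the main protein of high-density lipoprotein, was at least 173-fold higher in hepatocytes. Of the 8 tested FXR targets 7 were higher in hepatocytes (median -2.66), and 3 of the 8 were undetected in islets. Among these were Kng1, the kininogen precursor, at least 437-fold, and Fetub, at least 39.4-fold.

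Of the 4 tested targets of the FOXA factors in liver 4 were higher in hepatocytes (median -2.65), all undetected in islets. Abcc2, which exports conjugates into bile, was at least 74-fold higher, and Afp, the fetal plasma protein, at least 4.02-fold higher. Of 4 CEBPA targets 3 were higher in hepatocytes (median -3.11), 2 of them undetected in islets, among them Hamp, the iron hormone hepcidin, at -6.9 (SE 0.35, detected on 2 of 4 islet arrays), and Cyp2d9, at least 8.82-fold. Of 5 targets of Foxa2 in islets 5 were higher in islets (median 7.47), 4 of them undetected in hepatocytes, among them the glucagon gene Gcg, at least 820-fold, and the endocrine factor gene Nkx2-2, at least 93.8-fold.

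The list of LRH-1 targets of liver was split. Of 6 tested genes, 4 were higher in hepatocytes and 2 in islets (median -1.16). Abcg5, a sterol exporter, differed by -2.42 (SE 0.27) and was detected on 1 of 4 islet control arrays, so the size of its difference is uncertain. The DNA polymerase gene Polk differed by -2 (SE 0.45, detected on 3 of 4 islet arrays). Dio1, a thyroid hormone deiodinase gene, was at least 14.3-fold higher in islets. Of the LRH-1 targets of acinar cells 0 could be tested.

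Other transcription factors enriched in liver lay on both sides. Of 33 listed, 21 were tested in control cells, with a median of -0.17. Of these 21, 6 were higher in islets and 6 in hepatocytes, against 31.9% and 28.3% of all tested genes. Hhex, a homeobox factor of liver and of delta cells, differed by -3.43 (SE 0.21, limma adjusted p = 7.04e-07). Nr1i2, the xenobiotic receptor PXR, was undetected in islets and at least 3.55-fold higher in hepatocytes. Dbp, an output factor of the circadian clock, was higher in islets by 4.14 (SE 0.18, adjusted p = 7.15e-08), and Mlxipl, the carbohydrate-responsive factor ChREBP, by 2.54 (SE 0.57, adjusted p = 0.00388). Of 9 tested coactivators and corepressors, Ppargc1b was higher in islets by 1.76 (SE 0.25) and Ncoa3 lower, at -0.47 (SE 0.18, adjusted p = 0.0479), and 7 did not pass.

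In FK866-treated cells, where 31.6% of all tested genes were called higher in hepatocytes and 36.9% in islets, 15 of 15 tested HNF4A targets and 6 of 7 FXR targets were higher in hepatocytes, as were 4 of 4 FOXA and 3 of 4 CEBPA targets, and 5 of 5 islet targets of Foxa2 were higher in islets. Of these, 9 of the 15 HNF4A, 3 of the 7 FXR, 3 of the 4 FOXA and 2 of the 4 CEBPA targets were detected on 0 islet arrays, and 4 of the 5 islet targets on 0 hepatocyte arrays, so the filter set their direction. The LRH-1 list gave 3 higher in hepatocytes and 2 in islets of 5 tested. For FK866 against control, limma called 0 genes of any list in either tissue. In hepatocytes the 18 tested HNF4A targets had a median change of -0.02 log2, the 8 FXR targets -0.04, the 5 FOXA targets 0 and the 5 CEBPA targets 0, against 0 over all tested genes. One of the HNF4A targets, the liver pyruvate kinase gene Pklr, had an unadjusted p of 0.049 by limma with a change of 0.25 (SE 0.11, adjusted p = 1). In islets the 5 targets of Foxa2 had a median change of -0.24 log2 and the 18 tested liver-enriched factors -0.01. Dbp changed by -0.49 (SE 0.17) and Srebf1, the sterol and lipogenic factor, by -0.56 (SE 0.19), both with adjusted p = 1 by limma.

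The genes whose log2 signal followed each factor most closely over the 16 arrays were found among 8133 genes detected on at least 8 arrays. The arrays span both tissues, so these correlations carry the tissue difference and are descriptions. For Foxa1 they were Serpina1c (Pearson r = 0.999) and Serpina1e (0.998), genes of plasma protease inhibitors, and for Hnf4a they were Sepx1 (0.99) and Slc6a12 (0.989). Nr5a2 was followed by Mupcdh and Bmp4 (both 0.998), Cebpa by Ikbkg (0.981) and Ptpn14 (0.978) and Nr1h4 by Fmo1 (0.919) and Sema4g (0.916). Foxa3 was followed by Cdk10 (0.967) and Cdh1 (0.958), the gene of E-cadherin, Foxa2 by Rtn4rl1 (0.955) and Arsb (0.949), and Prox1 least closely, by Rbm42 (0.893) and Rassf7 (0.887).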

How the data were processed

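The linear intensity of each probe and its detection p-value were deposited by the authors, with no step between arrays visible in the values. The deposited score of each gene is, by its values, the mean log10 signal of its probes, with signals below 1 set to 1, scaled within each array. The sources used here do not name the scanner software or array annotation. Probes were named by matching scores to runs of neighbouring probes in symbol order (18106 of 18111 symbols, tolerance 1e-06). Over 5015 rows of the score table the islet values were displaced by 1 row, which holds for Nr5a2 and Nr1h4, and were taken from the row above.

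In R 4.3.3 with limma 3.58.1, neqc (background from detection p-values, offset 16, quantile) was run over the 16 arrays, and the probe with the highest mean stood for a gene. Genes detected at p under 0.05 on at least 4 arrays of a fit were tested by limma on the groups compared, with Benjamini-Hochberg adjustment over all of them. Errors are SE or SD as named, and intervals cover 95%. The script was tested on simulated data. Promoters were searched in Python 3.11.15.

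Factors and gene lists were chosen with earlier results of these data known. Named besides the 9 factors were up to 2 genes per list and direction with the largest change past 0.05 in the control tissue comparison, 2 genes of closest pattern per factor, and always Nr0b2, Cyp7a1 and Ppargc1a. Other genes of this rule are not reported here. Pklr, Dbp and Srebf1 were named for FK866 after their values were seen. Deviations from group means correlated across genes at 0.383 to 0.611 between same-numbered hepatocyte arrays and at 0.533 to 0.928 between same-numbered islet arrays. Between control and FK866 arrays of different number the range was -0.365 to 0.0754 in hepatocytes and -0.85 to 0.671 in islets. Each control array correlated best with its own number, less distinctly in islets (0.73 against up to 0.671 for number 4). Numbers were thus taken to pair arrays within a tissue, from the data and not from the labels. Between tissues same-numbered arrays correlated at -0.108 to 0.0853, and numbers were not taken to pair them. Alternatives were normalization within each tissue, the deposited scores, floored signals, no detection filter, trended and robust variances, the mean of all probes, the replicate block, islet arrays 2 left out, and each array left out.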

Additional observations from a re-analysis of the deposited data

Results flagged for a closer look

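These 4 values stood apart from the other 3 arrays of their group by Dixon's 95% criterion, all on islet arrays numbered 2, whose median signals were the lowest. Hnf4a read 8.97 log2 on islet control array 2, against 7.92 on the nearest array, a gap of 0.937 of the group's range. Foxa3 read 12.72 on the same array, against 11.3 (0.859 of the range), and 12.65 on islet FK866 array 2, against 11.56 (0.872). Cebpa read 4.92 on islet FK866 array 2, against 5.44 (0.959), with no array of that group above detection. Chance gives such a gap in about 1 in 20 groups. All 4 are normalized values. Before normalization, the linear signal of Hnf4a on islet control array 2 was the lowest of its group (213.6), and that of Foxa3 lay among the others (3329). On islet FK866 array 2 the linear signal of Foxa3 was the highest of its group (3776) and that of Cebpa the lowest (-6.32).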

How the results depend on the processing

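Over 15 distinct alternatives each, the tissue differences of Hnf4a, Foxa1, Cebpa and Nr5a2 kept their call in control and in FK866-treated cells, and none of the 120 values per comparison over the 8 factors changed direction. For Nr5a2 the mean of all probes moved the difference from -2.45 to -0.98 and from -2.54 to -1.08. The number of factors higher in islets in control cells was 1, and 0 with the deposited scores, floored signals, no detection filter or the mean of all probes (0 to 1 with 1 array left out). In FK866-treated cells it was 1, and 0 with normalization within each tissue, the deposited scores or floored signals, and 2 with the mean of all probes, the replicate block or islet arrays 2 left out (0 to 2 with 1 array left out). The replicate block between tissues, whose numbers do not pair the arrays, ended the Prox1 calls (adjusted p = 0.0558 and 0.0601), made the Foxa2 call in FK866-treated cells (0.0122) and changed no other tissue call of a factor. With the pairing as a block, FK866 called 0 factors in either tissue and 4 of all genes in islets.

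For FK866 in hepatocytes, turned signs were 0 for Foxa1 and 0.06 for Prox1 on the deposited scores and 0 for Prox1 with the mean of all probes. With 1 array left out the changes ranged from -0.25 to 0.06 for Hnf4a, -0.11 to 0.08 for Foxa1, -0.12 to 0.11 for Foxa2, -0.12 to 0.15 for Foxa3, -0.29 to 0.06 for Cebpa, -0.11 to 0.04 for Nr5a2, -0.26 to 0.04 for Prox1 and -0.39 to 0.03 for Nr1h4. In islets Hnf4a was 0.11 without both arrays numbered 2, and with 1 array left out the ranges were -0.18 to 0.19 for Hnf4a, -0.51 to 0.01 for Foxa2 and -0.09 to 0.57 for Foxa3. The tissue difference in the change turned for Foxa1 (-0.01) and Nr5a2 (0.02) on floored signals and for Nr5a2 (0.02) without islet arrays 2. With 1 array left out it ranged from -0.14 to 0.32 for Hnf4a, -0.48 to 0.05 for Foxa2, -0.12 to 0.55 for Foxa3, -0.18 to 0.05 for Nr5a2 and -0.19 to 0.23 for Nr1h4. No FK866 value passed the threshold under any alternative (lowest adjusted p 0.533). The cause of these turns was not tested. Signal over background limits Foxa1, Cebpa and the brightest Nr5a2 probe in islets to bounds.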
